A study of Homo sapiens with 45 samples.

Results

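The 34 genes described here encode subunits or assembly factors of the 26S proteasome: PSMA1 to PSMA7 and PSMB1 to PSMB7, which build the 20S core (14 genes), and PSMC1 to PSMC6 and PSMD1 to PSMD14, which build or assemble the 19S regulatory particle (20 genes). They were taken by name, and all 34 had a row among the 23045 genes of the deposited tables. The data were single-cell RNA profiles, at passage 40, of the human embryonic stem cell line H1, made with Smart-seq2 and Nextera XT. The groups were 12 fixed (DAPI+) cells and 15 live (DAPI-) cells prepared by FRISCR, a procedure that recovers RNA from fixed, sorted single cells, and 7 fixed (DAPI+) cells and 11 live (DAPI-) cells lysed in the detergent Triton X-100. The sample titles call the first preparation PLRC and the other one RLT, so the fixed Triton cells are those titled Fixed_RLT; the extraction protocol in the labels describes cortical tissue rather than H1 cultures. A code in the titles splits every group into 2 library sets. The labels name no separate cultures. A group therefore counts as 1 sample, its cells give spread but no replication, and no p-value is given.

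The 26S proteasome degrades proteins tagged with ubiquitin. In the barrel-shaped core, rings of alpha subunits (PSMA) gate the entry and rings of beta subunits (PSMB) hold the proteolytic sites, while the regulatory particle at the ends recognises the ubiquitin chain, removes it and threads the unfolded protein into the barrel with a ring of ATPases (PSMC). The genes are expressed in nearly all cells, and embryonic stem cells are known for high proteasome activity; the transcription factor NRF1 (NFE2L1) can raise most subunit genes together through antioxidant response elements in their promoters.

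Because subunit genes are known to be regulated together, promoters were searched for the letters TGACNNNGC, the core of that element, on both strands from 250 bases before to 50 bases after the RefSeq start (GRCh38.p14). Of the 29 members with a RefSeq promoter, 9 held the letters (31.0%), against 16.1% of 27305 genes with a promoter in the table (13.3% of its 35116 promoters). They were 2 of 10 core genes (PSMA4 and PSMB3) and 7 of 19 regulatory genes (PSMC4, PSMC5, PSMD1, PSMD3, PSMD5, PSMD9 and PSMD12). One promoter per gene class is printed, 5′ to 3′ on the gene's strand, with the matching letters in capitals; in PSMC4 they lie on the opposite strand and so appear reversed and complemented. The match is a description and not a binding site.
PSMA4, an alpha subunit, chr15:78540536-78540835, plus strand: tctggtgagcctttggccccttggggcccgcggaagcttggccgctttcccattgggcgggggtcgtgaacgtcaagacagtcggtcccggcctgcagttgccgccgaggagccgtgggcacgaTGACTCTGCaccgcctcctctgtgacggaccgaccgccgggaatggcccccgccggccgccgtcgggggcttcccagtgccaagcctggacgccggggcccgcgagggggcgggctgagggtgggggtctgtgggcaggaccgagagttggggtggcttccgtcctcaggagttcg
PSMB3, a non-catalytic beta subunit, chr17:38752491-38752790, plus strand: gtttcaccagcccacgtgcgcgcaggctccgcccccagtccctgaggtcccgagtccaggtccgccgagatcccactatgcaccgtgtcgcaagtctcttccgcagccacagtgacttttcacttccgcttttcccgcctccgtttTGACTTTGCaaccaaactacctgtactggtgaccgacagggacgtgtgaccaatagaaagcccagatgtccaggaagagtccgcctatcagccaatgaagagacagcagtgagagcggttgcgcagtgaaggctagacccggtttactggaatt
PSMC4, an ATPase, chr19:39970915-39971214, plus strand: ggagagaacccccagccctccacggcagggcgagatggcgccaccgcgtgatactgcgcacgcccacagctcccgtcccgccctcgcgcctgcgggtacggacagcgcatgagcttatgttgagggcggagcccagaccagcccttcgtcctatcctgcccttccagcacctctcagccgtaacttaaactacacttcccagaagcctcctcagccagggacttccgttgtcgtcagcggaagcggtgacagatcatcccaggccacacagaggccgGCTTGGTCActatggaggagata
PSMD1, a scaffold subunit of the base, chr2:231056617-231056916, plus strand: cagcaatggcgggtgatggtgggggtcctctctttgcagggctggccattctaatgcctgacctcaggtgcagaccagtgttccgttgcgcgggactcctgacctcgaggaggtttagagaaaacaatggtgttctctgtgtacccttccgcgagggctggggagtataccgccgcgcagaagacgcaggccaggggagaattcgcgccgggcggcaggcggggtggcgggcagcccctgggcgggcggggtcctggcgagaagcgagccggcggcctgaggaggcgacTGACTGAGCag

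Total counts lay between 3388417 and 6594043 per cell. The embryonic stem cell label was met by its markers: 7 of 7 (POU5F1, NANOG, SOX2, LIN28A, DPPA4, TDGF1 and L1TD1) had a median above 1 TPM in every group, their summed level being 912 TPM in fixed Triton cells and 3330 TPM in live Triton cells (medians), while SOX1 and HES5 (neural), COL3A1 and DCN (fibroblast), T and MIXL1 (mesoderm) and SOX17, FOXA2 and GATA6 (endoderm) were at 0 in all cells. Of the 5 fibroblast markers 3 had a median above 1 TPM in fixed Triton cells and 3 in live Triton cells, summing to medians of 109 TPM (19.0 to 251) and 408 TPM (193 to 988), and of the 5 neural markers 1 and 2 did, summing to 19.4 TPM (7.08 to 212) and 128 TPM (70.3 to 203). EOMES, the other mesoderm marker listed, had a median of 0 in every group. It reached 20.4 TPM in fixed FRISCR cells and 0.13 TPM in live Triton cells, and was at 0 in all cells of the remaining groups. The fixed Triton cells stood apart from the rest as libraries. After thinning to 1000000 counts they had a median of 5086 genes detected, against 9616 in live Triton cells, 8924.5 in fixed FRISCR and 9066 in live FRISCR cells. The unmatched row TVAS5 took a median 26.3% of their counts and rRNA-named rows 9.00%, against 6.90% and 1.26% in live Triton cells. With these and the other abundant unmatched rows left out of the totals, the median log2 fold of fixed over live Triton cells was 0.01 for the core and -2.11 for the regulatory particle, against -0.89 for all genes, and 19 members were more than 2-fold lower, against 48.1% of genes; with the totals whole, as used below, the medians were -0.60, -2.73 and -1.50. TPM is a share within each library, so less RNA of one gene and more RNA of other rows cannot be told apart in it.

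Outside the fixed Triton cells the proteasome genes formed an abundant set. Their summed level per cell had a median of 17039 TPM in fixed FRISCR cells (13573 to 19069) and 16002 TPM in live FRISCR cells (14177 to 17457), and 16407 TPM in live Triton cells (13175 to 18210). In fixed Triton cells the median was 5382 TPM (4365 to 8711), so that no fixed Triton cell reached the lowest cell of any other group. As a share of counts the medians were 0.53% in fixed Triton cells, against 1.14% in live Triton cells, and 1.27% in fixed FRISCR cells, against 1.18% in live FRISCR cells. Per length, core transcripts were the more abundant: in live Triton cells the median core gene stood at 713 TPM and the median regulatory gene at 298 TPM, and the 3 most abundant members were PSMB1 (median 1237 TPM), PSMB6 (1210 TPM) and PSMB5 (1175 TPM). The least abundant was PSMD9 (27.9 TPM).

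**Figure D1:**
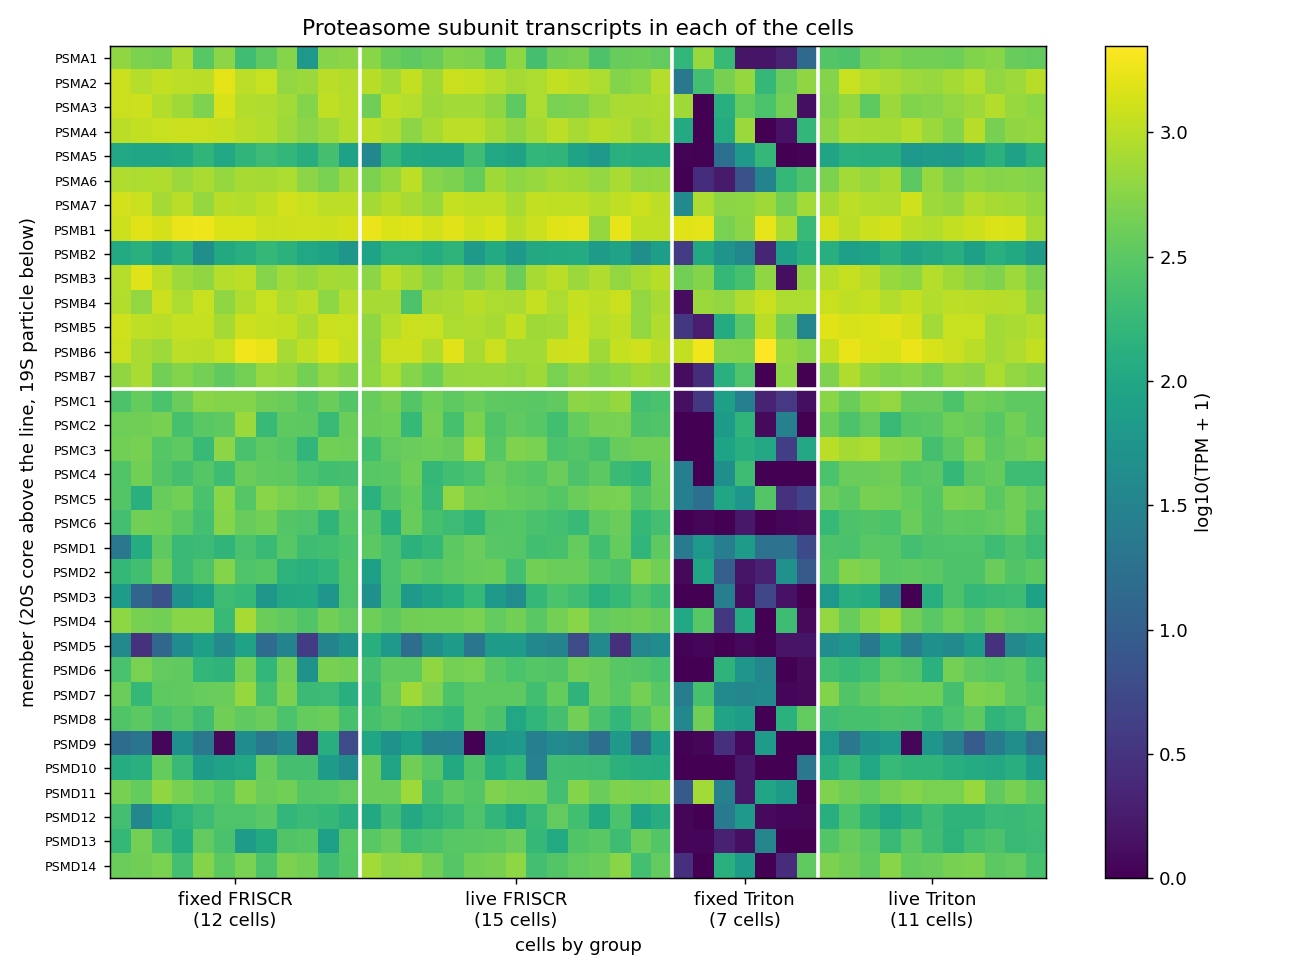
Each column is 1 cell and each row 1 member, coloured by log10(TPM + 1); white lines divide the groups and the 20S core from the 19S particle. The 7 fixed Triton columns are dark in most of the lower rows, whereas PSMB6 (533 to 2223 TPM) stays bright in all 7.

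In the fixed Triton cells the core and the regulatory particle differed. The regulatory genes summed to 249, 1878, 897, 1043, 672, 503 and 829.01 TPM in the 7 cells, against 4718 to 6588 TPM (median 5662) in the 11 live Triton cells. All 7 cells lay below every live cell. The core genes summed to 4116, 6565, 3595, 5213, 8039, 4879 and 4225 TPM, against 8457 to 12143 TPM (median 9986) in live Triton cells. These groups did not overlap either, but their nearest cells lay closer together (8039 and 8457 TPM) than for the regulatory genes (1878 and 4718 TPM). The ratio of core to regulatory transcripts was 3.50 to 16.5 in fixed Triton cells (median 5.10), against 1.52 to 2.00 in live Triton cells (median 1.74), 1.74 to 2.50 in fixed FRISCR cells (median 2.14) and 1.54 to 2.18 in live FRISCR cells (median 1.81). Within the library sets the fixed Triton median was 4.50 and 9.70, against 1.73 and 1.76 in live Triton cells.

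**Figure D2:**
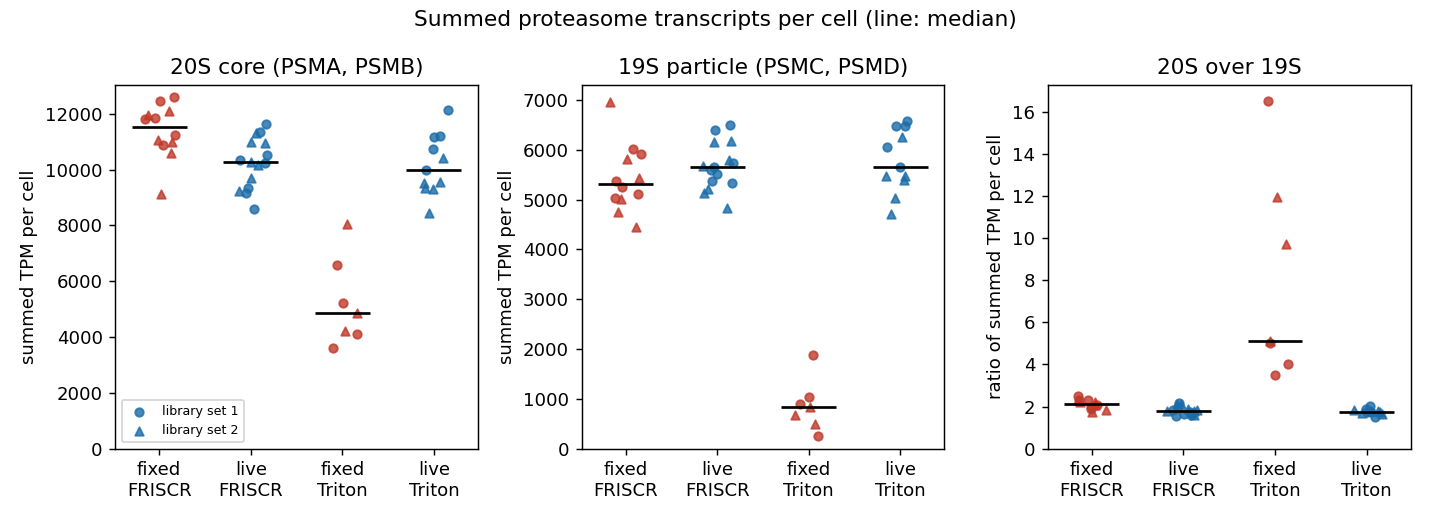
Summed TPM of the 14 core genes (left) and the 20 regulatory genes (middle), and their ratio (right), per cell in the 4 groups; circles and triangles are the 2 library sets and lines are medians. The fixed Triton cells lie below all other cells for the regulatory genes (249 to 1878 TPM) and above all others in the ratio (3.50 to 16.5).

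To compare single genes, each group's cells were pooled by adding their counts and scaling to the pooled total (CPM), and a gene was counted as higher or lower when the ratio passed 2-fold; all 34 members had at least 20 CPM in one of the groups of every comparison. Between fixed and live Triton cells 23 of 34 members were more than 2-fold lower, against 58.5% of the 7256 genes compared, and 0 were past 2-fold on the high side, against 12.4%. By particle, 5 of 14 core genes and 18 of 20 regulatory genes were lower. The median log2 fold was -0.60 for the core and -2.73 for the regulatory particle, against -1.50 for all genes, and -1.81 over all members. Relative to the median of all genes, the core stood 0.90 higher and the regulatory particle 1.23 lower on the log2 scale. The 2 library sets gave core medians of -0.59 and -0.42, regulatory medians of -2.71 and -3.81, and all-gene medians of -2.09 and -2.07. The scaling moves all genes together: with TMM the all-gene median was -0.48, the core median 0.41 and the regulatory median -1.71, so the direction of the core depends on the scaling, also without the abundant rows above, that of the regulatory particle does not in the scalings tried, and the distance between them stayed at 2.13. With TMM 16 members were lower, against 42.1% of genes, and 5 were higher (PSMA7, PSMB1, PSMB4, PSMB6 and PSMD8), against 26.3%. Cells of the 2 groups did not overlap in TPM, with fixed cells lower, for 13 members (1 core and 12 regulatory), against 13.6% of all genes.

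Transcript length differed between the particles and went with this comparison. The length implied by counts over TPM had a median of 0.33 of the median gene for the core and 0.55 for the regulatory genes. When all genes were cut into 5 bins of equal size by this length, the shortest bin had a median log2 fold of 0.02 in fixed over live Triton cells, against -2.14 to -1.51 in the longer bins. Within the shortest bin, 12 core genes had a median of -0.60 and 7 regulatory genes one of -2.53. Measured against the 200 genes nearest in length, the core stood at a median of -0.25 (10 of 14 genes below 0) and the regulatory particle at -1.31 (16 of 20 below 0), which puts the distance between these medians at 1.07 in place of 2.13. Single genes crossed this order. PSMA6, PSMB7 and PSMB5 stood at -2.50, -1.62 and -1.39. PSMD8, PSMD9, PSMD11, PSMD14 and PSMD1 stood at 1.80, 1.02, 0.57, 0.22 and -0.05. Several of these values rest on a single cell, which held 96.9% of the fixed counts of PSMD9, 83.2% of PSMD11, 68.5% of PSMB7 and 68.1% of PSMD14. The part of length itself in the difference was not tested.

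**Figure D3:**
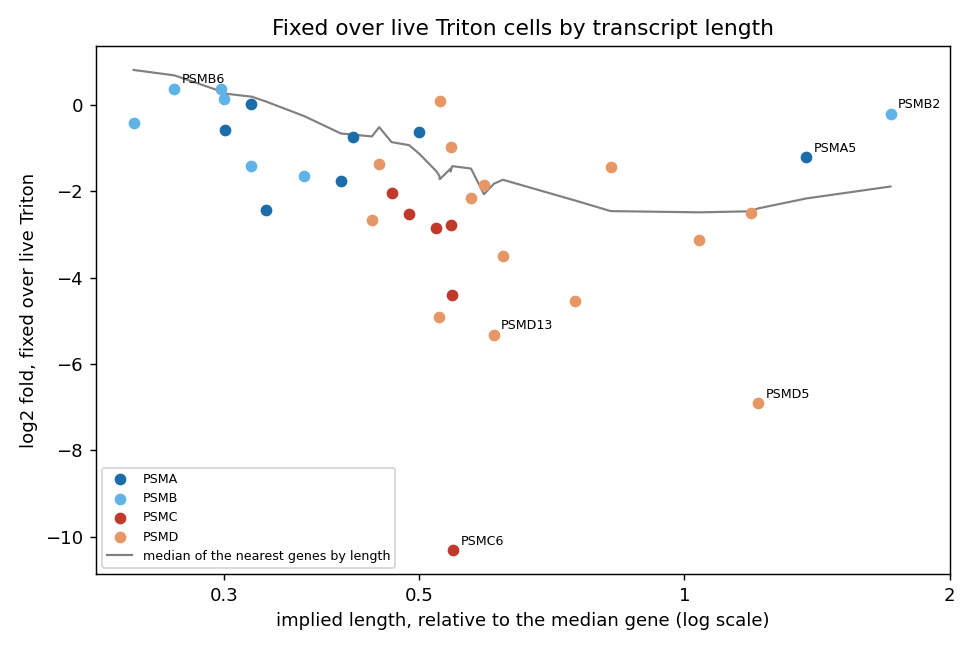
Log2 fold of fixed over live Triton cells of each member (y) against its implied length relative to the median gene (x, log scale), coloured by class; the grey line is the median of the 200 genes nearest in length. Of the points below the line, 16 are PSMC or PSMD genes and 10 are core genes, the lowest core gene being PSMA6 (-2.50 relative to the line).

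The alpha subunits (PSMA) form the outer rings and the gate of the core. In fixed over live Triton cells their median log2 fold was -0.74. Of the 7 genes, 3 were more than 2-fold lower, against 58.5% of all genes. PSMA7 was the highest, at 39.2, 850, 583, 597, 738, 433 and 771 TPM in the 7 fixed cells, against 649 to 1279 TPM (median 819) in live Triton cells. The ranges overlapped and the log2 fold of summed CPM was 0.01 (1.01-fold, 95% counting interval 0.99 to 1.03). By mean TPM, PSMA7 was lower, at 573 in fixed and 857 in live Triton cells. PSMA6 was the lowest, at 0, 1.72, 0.74, 5.74, 31.8, 168 and 255 TPM, against 321 to 821 TPM (median 562) in live Triton cells. It was the one core gene whose cells did not overlap, 5.39-fold lower (5.13 to 5.66); its 4 cells of the first library set held at most 5.74 TPM, the sets gave log2 folds of -7.71 and -1.21, and leaving out the seventh cell made it 9.74-fold lower. For PSMA4 the difference was 3.41-fold on the low side (3.30 to 3.52); the fourth cell held 61.7% of its fixed counts, and leaving that cell out gave 7.67-fold. PSMA1, at a log2 fold of -0.74, stood at -2.28 without the second fixed cell, which held 671 TPM against a group median of 12.9. PSMA5, 2.32-fold lower (log2 -1.21), was within 2-fold (-0.95) when that same cell, with 0.06 TPM of PSMA5, was left out, and at -2.66 without the fifth. PSMA2 and PSMA3 were at -0.63 and -0.58.

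The beta subunits (PSMB) include the 3 proteolytic sites. PSMB6, the caspase-like site, was detected in every fixed Triton cell, at 1081, 1860, 555, 533, 2223, 679 and 544 TPM, against 765 to 1774 TPM (median 1210) in live Triton cells, with a log2 fold of summed CPM of 0.37 (1.29-fold, 1.27 to 1.31). Its mean TPM was lower, at 1068 in fixed and 1252 in live Triton cells, so the direction of PSMB6 depends on the measure. PSMB5, the chymotrypsin-like site, held 2.47, 0.80, 114, 306, 989, 429 and 33.7 TPM, against 758 to 1595 TPM (median 1175). It was 3.15-fold lower (3.07 to 3.23), with 1 fixed cell inside the live range, and its log2 fold was -3.36 in one library set and -0.45 in the other; without the fifth cell it was 5.19-fold lower. PSMB7, the trypsin-like site, held 0.29, 1.78, 130, 269, 0, 607 and 0 TPM, against 467 to 899 TPM (median 580), and was 2.69-fold lower (2.59 to 2.79), or 7.19-fold without the sixth cell, which held 68.5% of its fixed counts. The 3 catalytic messages were thus unequal in the fixed Triton cells. All were short, at 0.26 to 0.37 of the median gene. In fixed over live Triton cells the genes nearest in length had median log2 folds of 0.68 for PSMB6, 0.19 for PSMB7 and -0.26 for PSMB5. The part of length in this inequality was not tested.
The structural beta subunits stayed within 2-fold. PSMB1 held 179 to 1650 TPM (median 802) in fixed cells, against 813 to 1470 TPM (median 1237) in live Triton cells, with a log2 fold of 0.36. PSMB4 was at 0.14, PSMB2 at -0.21 and PSMB3 at -0.43; PSMB4 was near 0 in 1 fixed cell (0.31 TPM) and at 627 TPM or more in the other 6. PSMB2, the longest member at 1.71 of the median gene, lay 1.79 above the median of its length bin. Of the 7 beta genes, 5 lay above the all-gene median in both library sets, but the share of all genes doing so was not computed. Against the genes nearest in length, PSMB1 and PSMB2 stood above (0.05 and 1.68). PSMB3, PSMB4, PSMB5, PSMB6 and PSMB7 stood below (-1.24, -0.16, -1.39, -0.31 and -1.62).

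The 6 ATPases (PSMC) form the motor ring of the regulatory particle. All 6 passed 2-fold on the low side in fixed over live Triton cells, against 58.5% of all genes. Their median log2 fold was -2.82, and for 5 of them the cells did not overlap, against 13.6% of all genes. Summed over the 6 genes, fixed Triton cells held 53.7, 18.4, 371, 566, 384, 35.3 and 107 TPM, against 1782 to 2909 TPM (median 2234) in live Triton cells. PSMC6 was at 0, 0.15, 0, 0.63, 0, 0.15 and 0.17 TPM, against 176 to 417 TPM (median 280). Only 6 counts were left over 7 fixed cells, against 15147 over 11 live ones, a log2 fold of -10.31 (1273-fold lower, 585 to 3468). It was low in both library sets, at -9.91 and -10.24, and at -11.10 without the fourth cell. In the second set its fixed counts were raised to a floor of 3, so -10.24 is a bound. PSMC6 was present in all FRISCR cells, at 154 to 547 TPM (median 305) in fixed ones and 129 to 384 TPM (median 233) in live ones.
PSMC1 held 0.36, 2.44, 78.3, 27.1, 1.08, 2.60 and 0.35 TPM, against 257 to 633 TPM (median 396), and was 21.1-fold lower (19.3 to 23.0), or 56.2-fold without the third cell. PSMC5 had the highest log2 fold of the ATPases, with 26.6, 15.8, 94.1, 56.2, 282, 1.97 and 3.68 TPM, against 293 to 478 TPM (median 385), 4.14-fold lower (3.96 to 4.34), or 9.00-fold without the fifth cell. PSMC2, PSMC3 and PSMC4 were at log2 folds of -2.86, -2.78 and -2.53, and without the fourth cell PSMC2 was at -3.99 and PSMC4 at -4.23; PSMC4 was read in 3 of 7 cells after thinning and overlapped the live range through 1 cell at 204 TPM. PSMC1 has 13 named pseudogenes in GENCODE 29, none with a row of its own in the tables, so reads from these copies cannot be told apart from its own. The same limit holds for all 11 members with such copies (30 pseudogenes), among them PSMA6 (4), PSMA2 (3) and PSMD10 (3).

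Of the 14 PSMD genes, 12 were more than 2-fold lower, against 58.5% of all genes, and 7 did not overlap, against 13.6%. Their median log2 fold was -2.59. Among the base subunits, PSMD1 held 23.0, 59.5, 26.0, 67.2, 17.5, 17.9 and 4.6 TPM, against 195 to 312 TPM (median 259), 5.71-fold lower (5.48 to 5.95); it was present in all 7 fixed cells, each below all live ones. PSMD2, the other scaffold, was at a log2 fold of -3.12. PSMD4, a ubiquitin receptor, was at -1.37. Without the second cell PSMD2 was at -4.18 and PSMD4 at -1.96.
The lid, which carries the deubiquitinase, ranged widely. PSMD8 was the highest PSMD gene, at 35.5, 414, 88.8, 73.8, 0, 135 and 348 TPM, against 155 to 333 TPM (median 236), with a log2 fold of summed CPM of 0.08 (1.06-fold, 1.02 to 1.09). Its mean TPM was lower, at 156 in fixed and 238 in live Triton cells. PSMD14, the deubiquitinase, was 3.60-fold lower (3.47 to 3.74), or 9.58-fold without the seventh cell, at 1.81, 0, 131, 66.8, 0, 1.69 and 340 TPM, against 235 to 569 TPM (median 380). PSMD13 held 32.2 TPM in 1 fixed cell and at most 1.02 TPM in the other 6, against 143 to 367 TPM (median 218), and was 40.1-fold lower (34.6 to 46.9); without that cell, which held 94.9% of its fixed counts, it was 681-fold lower.
PSMD3 was 23.3-fold lower (20.2 to 27.1), or 119-fold without the third cell, and its ranges overlapped, with 1 live Triton cell also at 0 TPM. PSMD12 (-3.50), PSMD6 (-2.68) and PSMD7 (-2.15) were lower too, and stood at -5.13 (PSMD12), -3.81 (PSMD6) and -3.64 (PSMD7) when the cell with most of each was left out. PSMD11 was at -0.97, but 1 cell held 83.2% of its fixed counts and the value was -3.29 without it.

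PSMD5, PSMD9 and PSMD10 are not part of the finished particle; they are chaperones of the ATPase ring. PSMD5 was the lowest PSMD gene, at 0.08, 0.15, 0, 0.19, 0.06, 0.51 and 0.55 TPM in fixed Triton cells, against 1.98 to 69.2 TPM (median 42.2) in live ones. It kept 20 counts, against 4773, 120-fold lower (77.8 to 197), and no fixed cell reached the lowest live cell. PSMD10 held 20.0 TPM in 1 fixed cell and at most 0.65 TPM in the other 6, against 68.8 to 183 TPM (median 126), 29.9-fold lower (24.8 to 36.5); without that cell it was 924-fold lower. PSMD9, a low gene everywhere, was at -1.45 with 96.9% of its fixed counts in 1 cell, and at -6.26 without it. Leaving out these 3 genes gave a regulatory median of -2.68.

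**Figure D4:**
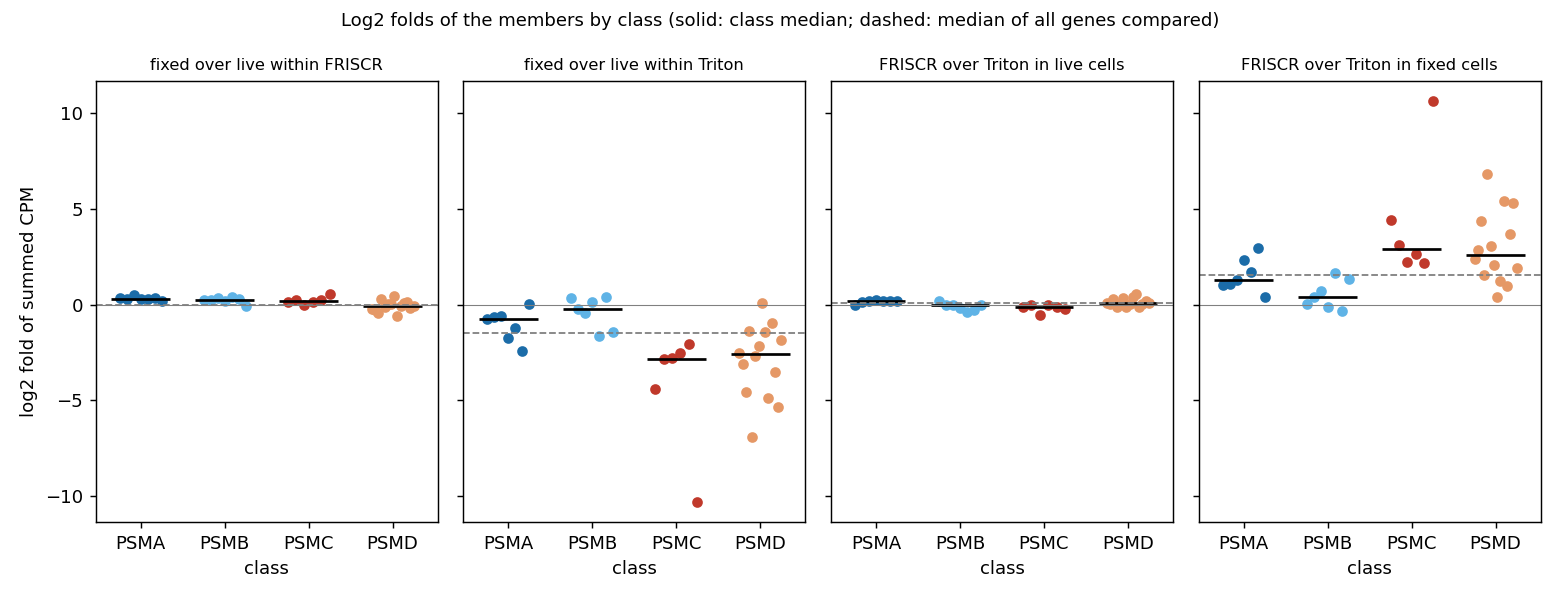
Log2 folds of summed CPM of the members by class in the 4 comparisons; solid bars are class medians and dashed lines the median of all genes compared. The PSMC and PSMD points lie mostly below the dashed line in fixed over live Triton cells (medians -2.82 and -2.59) and above it in FRISCR over Triton fixed cells, while both other panels are narrow.

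A member was called lost in the fixed Triton cells when, after thinning to 1000000 counts, it had a count in at least 10 of 11 live Triton cells and in at most 1 of 7 fixed ones. By this rule 2 members were lost, PSMC6 (0 of 7 cells) and PSMD10 (1 of 7), 2 of 34, against 16.4% of 6004 genes. With at least 5 counts needed in a cell they were 5, PSMC6, PSMD3, PSMD5, PSMD10 and PSMD13, against 25.1% of genes. No core gene was lost by either rule. Neither share of members exceeded that of all genes. The lost members were all regulatory, 2 of 20 by the first rule, against 16.4% of genes, and 5 of 20 by the second, against 25.1%. No loss beyond the general share is therefore read from the regulatory genes. The call on PSMC6 rests on single counts: with another random thinning 2 or more fixed cells kept one, and PSMD10 alone was lost. In fixed Triton cells 13 of 14 core genes were detected in at least 5 of the 7 cells, against 10 of 20 regulatory genes, and 6 regulatory genes but no core gene in 3 cells or fewer. Over all gene-by-cell values, 86.7% of core and 60.7% of regulatory values had a count after thinning, against 100% and 99.1% in live Triton cells. TPM was listed at 0 for 7.14% of core and 24.3% of regulatory values. These detection shares were not computed over all genes. Core genes were also the more abundant in live Triton cells (713 against 298 TPM for the median gene), so abundance and particle cannot be told apart in them.

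The 7 fixed Triton cells differed in which subunits were detected. Between 20 and 30 members were detected per cell (median 24), and the regulatory count ran from 9 of 20 in the first and second cells to 17 in the third. The cell with most genes detected overall (6637) was also the one with most members (30). The median coefficient of variation across cells was 91.4% for core and 161% for regulatory genes, against 23.6% and 26.3% in live Triton cells. Leaving out a single cell moved the fold by more than 1.5 times for 22 of the 34 members, 6 core and 16 regulatory, and ended the 2-fold call of 1, PSMA5.

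Within FRISCR, fixed and live cells held nearly level subunit transcripts. Of 34 members 0 passed 2-fold downwards, against 7.69% of 7518 genes, and 0 passed it upwards, against 3.34%; no member's cells failed to overlap, as for 0% of all genes. The median log2 fold was 0.30 for the core and 0.02 for the regulatory particle, against -0.02 for all genes. Core genes were above 0 in 13 of 14 cases, PSMB7 (-0.08) being the exception, and the shortest length bin, which holds 12 of them, had a median of 0.23. The core stood 0.28 above the regulatory particle in log2, but this distance was 0.0041 in the second library set, so it was not shared by both. On mean TPM the regulatory median was -0.12 and the core median 0.19, against -0.14 for all genes.
By class, PSMA3 (0.50) and PSMA7 (0.19), PSMB5 (0.37) and PSMB7, PSMC6 (0.54) and PSMC3 (-0.03), and PSMD8 (0.45) and PSMD9 (-0.61) were the highest and lowest log2 folds. PSMD9 held 0.12 to 123 TPM (median 19.4) in fixed FRISCR cells, against 0 to 93.6 TPM (median 40.7) in live ones, and its log2 fold was -1.11 without 1 fixed cell. PSMC6 held 154 to 547 TPM in fixed FRISCR cells, as given above, 1.45-fold higher than in live ones (1.42 to 1.48). Detection after thinning was 99.2% of regulatory values in fixed FRISCR cells, against 99.7% in live FRISCR cells.

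The preparations gave like levels in live cells. None of the 34 members passed 2-fold in FRISCR over Triton live cells, against 3.14% of 7447 genes lower and 6.57% higher, and for every member the cells overlapped, as they did for all but 0.201% of genes. The median log2 fold was 0.07 for the core and 0.01 for the regulatory particle, against 0.10 for all genes. Under TMM the 2 medians were -0.01 and -0.07, so neither direction is firm. The class extremes were PSMA4 (0.26) and PSMA1 (-0.03), PSMB1 (0.19) and PSMB5 (-0.40), PSMC2 (-0.01) and PSMC3 (-0.55), and PSMD10 (0.56) and PSMD11 (-0.13). PSMC3 held 217 to 712 TPM (median 368) in live FRISCR cells, against 228 to 990 TPM (median 496) in live Triton cells, and its library sets gave -0.99 and -0.01. The ranges overlapped in part, as live Triton cells of the first set at 990, 776 and 870 TPM lay above every live FRISCR cell.

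Between fixed cells the preparations differed widely. This comparison shares the fixed Triton cells with fixed over live Triton, so its values stand beside those and add nothing independent. Among fixed cells, FRISCR over Triton, 26 of 34 members were more than 2-fold higher, 8 core and 18 regulatory, against 59.8% of 7272 genes, and 0 passed 2-fold downwards, against 10.6%. The median log2 fold was 1.06 for the core and 2.75 for the regulatory particle, against 1.53 for all genes. The cells did not overlap, with FRISCR higher, for 9 members (1 core, 8 regulatory), against 6.82% of genes. With TMM the core median was -0.03, 16 members were higher, against 41.0% of genes, and 3 lower, against 25.2%.
The class extremes were PSMA6 (2.93) and PSMA7 (0.38), PSMB5 (1.63) and PSMB6 (-0.36), PSMC6 (10.61) and PSMC5 (2.15), and PSMD5 (6.82) and PSMD8 (0.39). PSMB6 held 716 to 1876 TPM (median 1088) in fixed FRISCR cells, against 533 to 2223 TPM (median 679) in fixed Triton cells, the lowest log2 fold of all members here. PSMD5 held 1.97 to 84.3 TPM (median 34.3) in fixed FRISCR cells, against 0 to 0.55 TPM (median 0.15) in fixed Triton cells. The 2-fold calls of PSMA1, PSMA2 and PSMD9 ended when 1 cell was left out, and a single cell moved the fold by more than 1.5 times for 22 of 34 members.

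Other genes of the pathway, a list of 40 names with 38 rows, lay on both sides. In fixed over live Triton cells 33 had at least 20 CPM, 14 of them past 2-fold on the low side, against 58.5% of genes, and 5 on the high side, against 12.4%, with a median log2 fold of -0.43. Lowest was UBA1, the main ubiquitin-activating enzyme, at -4.76 (-7.53 without 1 cell), followed by VCP (-4.12), the segregase that unfolds ubiquitinated proteins, and KIAA0368 (-4.10, or -5.78 without 1 cell), a proteasome adaptor. Highest was PSMB9, an immunoproteasome subunit, at 4.15, which rested on 1 cell and stood at -3.56 without it.
UBB, a ubiquitin gene and the most abundant of the list at a median of 1566 TPM in fixed Triton cells, against 2886 TPM in live Triton cells, was at -0.43. RPS27A, which encodes ubiquitin fused to a ribosomal protein, was at 0.63. SHFM1, the small lid subunit now called SEM1, was at 0.57 with a median of 744 TPM in fixed Triton cells, against 874 TPM in live ones, and POMP, the core assembly factor, at 0.95.
In fixed over live FRISCR cells 1 of 33 was lower (UBE3C, a ubiquitin ligase, -1.86), against 7.69% of genes, and 1 higher (RAD23B, a shuttle receptor, 1.10), against 3.34%. For FRISCR over Triton live cells 1 of 31 was higher (NFE2L1, 1.68), against 6.57% of genes, and 0 lower, against 3.14%, and KIAA0368 had the lowest value (-0.48). For FRISCR over Triton fixed cells 14 of 33 were higher, against 59.8% of genes, and 3 lower, against 10.6%, UBA1 (4.53, or up to 7.30 without 1 cell) and PSMB9 (-2.42, and 5.30 without 1 cell) being the extremes.

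The members whose promoters held the TGACNNNGC letters had a median log2 fold of -2.51 in fixed over live Triton cells (9 genes), against -1.999 for the 20 without. In fixed over live FRISCR cells these medians were 0.13 and 0.22. Of the 9 genes 7 were regulatory, against 19 of the 29 matched, so letters and particle cannot be told apart in these medians. PSMB3 (-0.43) and PSMC4 (-2.53), whose promoters are printed above, both hold the letters. By position, the 29 matched genes lie on 13 chromosomes, with 5 each on chromosome 14 (PSMA3, PSMA6, PSMB5, PSMC1 and PSMC6) and chromosome 17 (PSMB3, PSMC5, PSMD3, PSMD11 and PSMD12); on chromosome 14 the log2 folds ran from -0.58 (PSMA3) to -10.31 (PSMC6). In GENCODE 29, exons of 5 members overlap another listed gene (PSMA2 with MRPL32, PSMC5 with FTSJ3, PSMD1 with HTR2B, PSMD13 with SIRT3 and PSMD9 with WDR66), so their counts may hold reads of both.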

How the data were processed

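Per the labels' protocols, cDNA of each H1 cell was made by Smart-seq2 and libraries by Nextera XT. The authors deposited a table of expected counts (40.3% of nonzero values are not whole) and one of TPM, with 23045 genes each; per the submitters' processing notes the genome was GRCh37 (hg19), while aligner, quantifier and annotation were not given in the sources used here. The members and lists were chosen with earlier results of these data known. Counts were rounded, added up per group and scaled to CPM of the pooled total. Ratios carry exact 95% intervals from the binomial split, which cover counting error only. For log2 folds a sum below 3 was set at 3 counts. Genes needed at least 20 CPM in either group; called means past 2-fold. Each group counted as 1 sample, so no p-value was computed. Detection used thinning to 1000000 counts (seed 1). Length is counts over TPM, in 5 bins; the 200 genes nearest in length were added after seeing the data. Named in full are lost members, class extremes per comparison, catalytic subunits and the 3 most abundant members. Alternatives were TMM (edgeR 4.0.16), median-of-ratios (DESeq2 1.42.0; R 4.3.3), other totals, TPM and log means, other filters and thinnings, library sets and leaving out each cell. Promoters came from RefSeq (GRCh38.p14; 29 of 34 members matched) and overlaps from GENCODE 29 by symbol. Proteins were not analysed here.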

Additional observations from a re-analysis of the deposited data

Results flagged for a closer look

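Within the 7 fixed Triton cells, 16 of 42 values checked held 1 cell far above the other 6; the rule flags about 1 in 20 groups of normally spread values by chance. These TPM values are far from such a spread, with many near 0, so that rate does not apply to them and no excess is read from the number. In TPM, the second cell stood apart for PSMA1 (671), PSMD7 (236) and PSMD11 (761). The third cell did so for PSMC1 (78.3), PSMD3 (25.8) and PSMD6 (148.5). The fourth did so for PSMA4 (695), PSMC4 (204), PSMC6 (0.63) and PSMD12 (60.95). The fifth did so for PSMA5 (166), PSMC5 (282), PSMD9 (67.3) and PSMD13 (32.2). The seventh did so for PSMD10 (20.0) and PSMD14 (340). For PSMC6 the value is at the level of single counts. Of the 16 genes, 13 belong to the regulatory particle and 3 to the core.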

How the results depend on the processing

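No paired analysis was possible because each group is 1 sample, no result comes from a test, and no cell is matched to one of another group; the 2 library sets were compared apart instead. The distance between core and regulatory particle kept its sign in fixed over live Triton cells (2.13; 3.39 in the second library set; 1.90 to 2.49 leaving out a cell) and in FRISCR over Triton fixed cells (-1.69; -3.36 in the second set; -2.09 to -1.61). In fixed over live FRISCR cells it was 0.28, 0.0041 in the second set and 0.20 to 0.33 leaving out a cell, and in FRISCR over Triton live cells 0.06, 0.12 with the mean of log2(CPM + 1), 0.0028 in the second set and 0.03 to 0.09. The distance of all members from the median of all genes changed sign in all comparisons other than fixed over live FRISCR cells. In fixed over live Triton cells it was -0.31, -1.16 with log means, 0.026 and 0.31 in the library sets, and -0.72 to -0.19 leaving out a cell. In FRISCR over Triton fixed cells it was 0.45, 1.21 with log means, 0.10 and -0.079 in the sets, 0.28 with no filter, 0.68 at 50 CPM, and 0.27 to 0.67. In fixed over live FRISCR cells it was 0.22, 0.24 with log means, 0.17 and 0.20 in the sets, 0.17 with no filter, 0.19 at 50 CPM, and 0.14 to 0.25. In FRISCR over Triton live cells it was -0.09, 0.015 with log means, -0.0036 in the second set, and -0.12 to -0.03. Of the counts past 2-fold, members lower in fixed over live Triton cells numbered 14 with median-of-ratios (39.6% of all genes) and 22 to 24 leaving out a cell, and members higher numbered 5 with TMM (26.3% of genes) and 5 with median-of-ratios (28.8%). In FRISCR over Triton fixed cells 16 were higher with TMM (41.0% of genes) and 14 with median-of-ratios (38.2%), with 24 to 26 leaving out a cell, and 3, 3 and 1 were lower with TMM, median-of-ratios and totals without rRNA-named and abundant rows (25.2%, 28.0% and 19.2% of genes). In that comparison 28 were higher on mean TPM (66.9% of genes) and 30 with log means (80.1%). There, PSMA1 turned to -0.048 with TMM and -0.22 with median-of-ratios, PSMA2 to -0.014 and -0.18, and PSMD9 to -0.036 with median-of-ratios. In fixed over live FRISCR cells 1 was lower with log means and 1 in the first set, and 0 to 1 leaving out a cell. Lost members numbered 5 at 5 counts, 0 without thinning, 1 when no fixed cell was allowed, 1 with another seed, and 2 to 3 leaving out a cell. At 5 counts the median number of members detected per fixed Triton cell was 17. Summed TPM medians leaving out a cell were 16921 to 17157 in fixed FRISCR, 15978 to 16045 in live FRISCR, 5218 to 5819 in fixed Triton and 15718 to 16490 in live Triton cells; as percent of total counts, a different unit, they were 1.27, 1.18, 0.53 and 1.14. The cause of these shifts was not tested. With 1 sample per group, the spread between cultures is unknown.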
